A study of Mus musculus with 22 samples.

Results

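The genes described here are the 3 mouse orosomucoids Orm1, Orm2 and Orm3, together with Lrg1 and Prg4, which encode secreted glycoproteins that the liver releases into plasma. They were chosen by symbol, as every probe set of the array whose only annotated gene is one of the 5, and this gave 5 probe sets, 1 for each gene, of 45101 probe sets in all. The 5 are among 18194 genes with a probe set of their own. Liver RNA of male C57BL6 mice, 8 weeks old, was hybridised to Affymetrix arrays of the mouse genome. The treated mice received diclofenac sodium, a non-steroidal anti-inflammatory drug, at 30 mg/kg by daily intraperitoneal injection, and the control mice received saline in the same way. Livers were taken at day 1, day 3 and day 14, with 3 diclofenac and 3 saline arrays each for the first 2 times and 5 of either kind for the last. The labels state 5 mice for each group, so that at days 1 and 3 not all of them are among these arrays, and each array is taken as 1 liver of 1 mouse. The study asked how the liver transcriptome responds to single and repeated dosing, with inflammation as its main interest.

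Orosomucoids, also called alpha-1-acid glycoproteins, are plasma proteins of the lipocalin fold that bind basic and lipophilic drugs. Leucine-rich alpha-2-glycoprotein 1, the product of Lrg1, is secreted by hepatocytes and is also stored in neutrophil granules, and it modulates signalling by transforming growth factor beta in endothelium. Proteoglycan 4, or lubricin, the product of Prg4, is a mucin-like glycoprotein best known as the boundary lubricant of joints, and it is also made in liver. Orosomucoids are classical acute phase proteins, which hepatocytes secrete in larger amounts when interleukin 6, interleukin 1 and glucocorticoids act on them through STAT3, NF-kB, C/EBP factors and the glucocorticoid receptor.

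The orosomucoid genes are neighbours on chromosome 4 of GRCm38, where Orm1 (63344556 to 63348163), Orm3 (63356069 to 63359506) and Orm2 (63362449 to 63365877) lie within 21.3 kb. Lrg1 lies on chromosome 17 from 56119678 to 56121946 and Prg4 on chromosome 1 from 150449412 to 150466221. Orm2, Orm3 and Lrg1, 3 of the 5 genes, have a promoter in the RefSeq table for GRCm38.p6 that was used. The sequences are shown because the genes moved together, and capitals mark each match to a motif of the factors named above. For the orosomucoids the 161 bases from 250 to 90 before the start site are given, at chr4:63362199-63362359 for Orm2 and chr4:63355908-63356068 for Orm3, both on the plus strand, and for Lrg1 the 250 bases before the start, at chr17:56121947-56122196 on the minus strand. Start sites are those of the promoter table. For Orm3 this site, 63356158, lies within the span of the gene given above, whose first base directly follows the bases shown, whereas for Orm2 the site is the first base of the gene.
Orm2: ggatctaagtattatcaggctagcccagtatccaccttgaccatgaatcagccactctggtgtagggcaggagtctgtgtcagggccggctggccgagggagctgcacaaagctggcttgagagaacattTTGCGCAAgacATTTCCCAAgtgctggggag
Orm3: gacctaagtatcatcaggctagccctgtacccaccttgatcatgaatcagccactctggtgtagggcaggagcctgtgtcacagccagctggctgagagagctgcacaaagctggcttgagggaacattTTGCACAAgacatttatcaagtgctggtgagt
Lrg1: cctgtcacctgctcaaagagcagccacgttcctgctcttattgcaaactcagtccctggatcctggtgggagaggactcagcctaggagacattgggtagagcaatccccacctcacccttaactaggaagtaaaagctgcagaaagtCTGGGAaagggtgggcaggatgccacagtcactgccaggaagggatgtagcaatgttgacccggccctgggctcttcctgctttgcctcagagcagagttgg

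Over the 161 bases shown, Orm2 and Orm3 were identical at 144 of 162 aligned columns (88.9%), and over 250 bases at 85.9%, whereas Orm2 and Lrg1 shared 49.7% over 250 bases. Motifs were searched on both strands of the 250 bases before the start site of the table, from which positions are counted, so that the last part of the Orm3 window lies within the gene. TTGCNCAA, the palindromic form of a C/EBP site, which was added after the letters had been seen, began at position -120 in Orm2 and -121 in Orm3, and 2.61% of 32851 promoters hold it. The form TTNNGNAAT, another spelling of a C/EBP site, matched the reverse strand of Orm2 at position -109, 11 bases after the first match, and 10.2% of promoters hold it. CTGGGA, the core of the interleukin 6 response element, matched Lrg1 at -102, and 27.0% of promoters hold it. ACANNNTGT, a core of the glucocorticoid receptor site, matched Orm3 at -38 by this count, which lies within the span of the gene and outside the bases shown, and is in 5.84% of promoters. TTCNNNGAA, a STAT site held by 7.02% of promoters, and GGGA and CC with 4 bases between them, an NF-kB site held by 17.6%, had no match in these 3 windows. A match describes letters only, and no binding was measured.

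The deposited values are array signals on a linear scale, which the authors scaled to a common level for all arrays. Median signals of the arrays ran from 75.2 to 89.9 and correlations within a group from 0.876 to 0.926. All 12 hepatocyte markers lay above the array median in every group, with a summed signal of 474955 to 999491. The saline livers of day 14 differed from those of days 1 and 3 in 28.4% of genes (limma, adjusted p under 0.05), and the time of treatment and the processing of the arrays cannot be told apart in that comparison. Nor can they between days 1 and 3. In saline arrays of these days, 18S control probe sets stood at log2 12.05 and 14.68. The log2 signal of 3' over 5' controls stood there at 0.59 and 0.78. RNA quality, read as the log2 signal of 3' over 5' controls, stood at 0.74 in diclofenac arrays of day 14 and at 0.62 in saline arrays of day 14 (two-sided exact permutation test, p = 0.0238). Control transcripts added at hybridisation stood at log2 12.24 in diclofenac arrays and 12.04 in saline arrays of day 14 (p = 0.0476 in the same exact test), and at 12.05 in diclofenac arrays and 11.85 in saline arrays of day 3, with no overlap (exact p = 0.1, the smallest possible). The part of these controls in the results was not tested. Livers differed in neutrophil transcripts, whose summed signal over 12 markers was 26675.5 in diclofenac replicate 2 of day 1 and 25149 in diclofenac replicate 3 of day 14, against 933 to 4022 in the other 9 diclofenac livers and 438 to 1514 in the 11 saline livers. Results are therefore also given without these 2 livers. The array measures whole liver, in which fewer cells of a type and less RNA per cell cannot be told apart.

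All 5 genes were higher in every diclofenac liver than in every saline liver of the same day, at day 1, at day 3 and at day 14. Averaged over the 3 times on the log2 scale, Orm2 was 12.1-fold and Orm3 6.37-fold higher with diclofenac than with saline, Prg4 was 3.54-fold, Lrg1 2.16-fold and Orm1 1.78-fold higher. All genes were tested in limma on log2 signals, two-sided, with Benjamini-Hochberg adjustment over every gene measured above the array median in at least 3 arrays, and all 5 genes passed this filter. In exact permutation tests, which are two-sided, the complete separation of the groups gave p = 0.1 at days 1 and 3, the smallest that 3 against 3 livers allow, and p = 0.0079 at day 14, the smallest for 5 against 5.

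**Figure D1:**
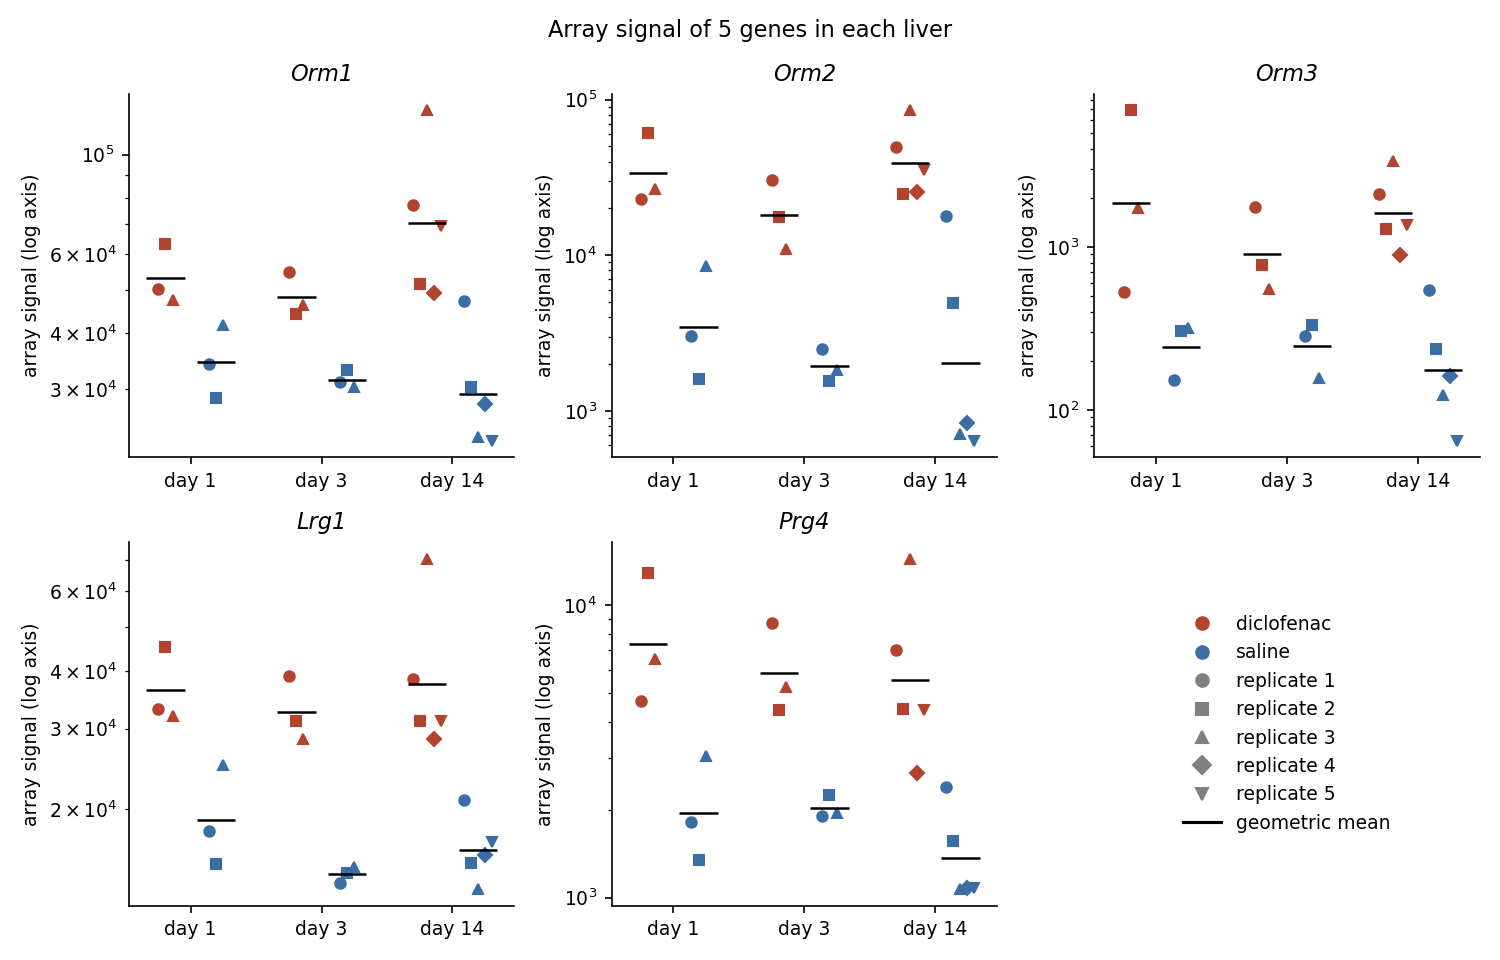
Array signal (log axis) of the 5 genes in each liver, diclofenac left of saline at each day, with symbols for the replicate number and bars for the geometric mean. In each panel and on each day all diclofenac livers lie above all saline livers, with the narrowest gap for Orm1 at day 14 (49220.4 against 47247).

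Orm1 had the smallest mean difference of the 5 genes and the highest mean signal of them in each group. The highest signal of any probe set on an array ran from 69237.5 to 153406. The part of this upper range in the size of the differences was not tested. At day 1 its signal was 50070.3, 63126 and 47392 in diclofenac livers, against 34095, 28692 and 41713 in saline livers. At day 3 it was 54782, 44107 and 46321 in diclofenac livers, against 31129.9, 33197 and 30297 in saline livers. At day 14 it was 77389, 51482, 125712, 49220.4 and 69348 in diclofenac livers, against 47247, 30288, 23534, 27869 and 23045 in saline livers. The lowest diclofenac liver of day 14, replicate 4, lay just above saline replicate 1, the highest control, at 1.04 times its signal. Log2 differences were 0.63 (SE 0.14, adjusted p = 0.231), 0.61 (SE 0.14, adjusted p = 0.123) and 1.26 (SE 0.27, adjusted p = 0.127) at days 1, 3 and 14 in limma. Diclofenac replicate 3 of day 14 stood highest of all 22 livers, and without it the difference of that day was 1.05 with an adjusted p of 0.0343.

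Orm2 showed the widest difference of the 5 genes. Its signal at day 1 was 22977, 61396 and 26835 in diclofenac livers, against 3024, 1605 and 8506 in saline livers. At day 3 the signal was 30295, 17529 and 11016 in diclofenac livers, against 2503, 1560.5 and 1834 in saline livers. The lowest diclofenac liver of day 3 thus had 4.40 times the signal of the highest saline liver, the largest such gap among the 5 genes and 3 days. At day 14 the signal was 49862, 24839, 85774, 25396 and 35219 in diclofenac livers, against 17958, 4941, 714, 837 and 643 in saline livers. Saline replicate 1 of day 14 was far above the other 4 saline livers of its day and yet below all 5 diclofenac livers. The log2 difference was 3.28 at day 1 (SE 0.54, adjusted p = 0.144), 3.22 at day 3 (SE 0.54, adjusted p = 0.0389) and 4.28 at day 14 (SE 0.85, adjusted p = 0.106), so that Orm2 passed limma's test at day 3. Without saline replicate 1 the difference of day 14 was 5.07 with an adjusted p of 0.0135. Without saline replicate 3 of day 1 the difference of day 1 was 3.93 with an adjusted p of 0.0140. At day 3 Orm2 no longer passed without diclofenac replicate 1 of that day (2.85, adjusted p = 0.232). The same held without several other single arrays, which are named below.

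Orm3 differed most among the treated livers of day 1. At day 1 its signal was 532, 6910.1 and 1726 in diclofenac livers, against 152, 305 and 317 in saline livers. Diclofenac replicate 2 was 13.0 times as high as replicate 1, and all 3 lay above the controls. At day 3 Orm3 measured 1758, 770.3 and 549 in diclofenac livers, against 283, 332 and 158 in saline livers. At day 14 it measured 2099.5, 1292, 3374, 898 and 1371 in diclofenac livers, against 545, 235, 123, 161 and 64.8 in saline livers. Saline replicate 5 of day 14 was the only liver of the 22 in which Orm3 was not above the median of its array. The log2 differences were 2.92 (SE 0.72, adjusted p = 0.231), 1.88 (SE 0.72, adjusted p = 0.346) and 3.21 (SE 0.51, adjusted p = 0.0675) at days 1, 3 and 14 in limma. Without diclofenac replicate 2 the difference of day 1 was 1.97 (adjusted p = 0.422). Without saline replicate 1 or without diclofenac replicate 3 Orm3 passed at day 14 (3.62, adjusted p = 0.0135 and 2.95, adjusted p = 0.0193). Orm1, Orm2 and Orm3 are close copies, the letters of their probes were not used here, and how far one transcript adds to the signal of another probe set was not tested.

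Lrg1 had the smallest adjusted p of the 5 genes at day 3 and for the mean of the 3 days. At day 1 its signal was 33188, 45257 and 32023 in diclofenac livers, against 17905, 15154 and 24899 in saline livers. At day 3 it was 39145, 31149 and 28443 in diclofenac livers, against 13767, 14447 and 14942 in saline livers, which differed among themselves by no more than 1.09-fold. At day 14 it was 38474, 31125, 70695, 28414 and 31226 in diclofenac livers, against 20910, 15215, 13348, 15869.9 and 16958 in saline livers. The lowest of all 11 diclofenac livers, replicate 4 of day 14, lay above the highest of all 11 saline livers, replicate 3 of day 1. The log2 difference was 0.94 at day 1 (SE 0.18, adjusted p = 0.201), 1.18 at day 3 (SE 0.18, adjusted p = 0.0317) and 1.21 at day 14 (SE 0.23, adjusted p = 0.106) in limma, and it passed at day 3. Without diclofenac replicate 3 the difference of day 14 was 0.98 with an adjusted p of 0.00827. Without saline replicate 3 that of day 1 was 1.14 with an adjusted p of 0.0415. At day 3 Lrg1 no longer passed without diclofenac replicate 1 of that day (1.05, adjusted p = 0.180), nor without several other single arrays named below.

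Prg4 followed the orosomucoids in direction. At day 1 its signal was 4712, 12842 and 6537 in diclofenac livers, against 1818, 1342 and 3043 in saline livers. At day 3 it was 8687, 4383 and 5266 in diclofenac livers, against 1901, 2234 and 1944 in saline livers. At day 14 it was 7048, 4403, 14443, 2670.1 and 4375 in diclofenac livers, against 2395, 1560.4, 1068, 1081 and 1078 in saline livers. Replicate 4 of day 14 came nearest to the controls, at 1.11 times the highest of them. Log2 differences were 1.91 (SE 0.36, adjusted p = 0.201), 1.53 (SE 0.36, adjusted p = 0.132) and 2.03 (SE 0.40, adjusted p = 0.106) at days 1, 3 and 14 in limma. Without diclofenac replicate 3 of day 14 Prg4 passed at that day, with 1.68 and an adjusted p of 0.0211.

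Set against all genes, complete separation of the livers upwards was seen in 8.23% of 12884 genes at day 1, in 10.8% at day 3 and in 2.18% of 11884 genes at day 14. Separation upwards on all 3 days was seen in 57 of 11692 genes (0.488%), and the 5 genes are among them. At day 1 none of the 5 genes and 0% of all genes passed limma's test at an adjusted p under 0.05, although each of the 5 had an unadjusted p under 0.05, as 13% of all genes did in either direction. At day 3 Orm2 and Lrg1, 2 of the 5, passed, beside 0.124% of genes that were higher and passed. At day 14 again none of the 5 and 0% of genes passed, while each of the 5 had an unadjusted p under 0.05, beside 10.8% of genes in either direction. The count of day 3 was 0 without saline replicate 1, 2 or 3 of that day, without diclofenac replicate 1 or 2, or without saline replicate 1 of day 1, and was 4 without diclofenac replicate 2 of day 1. The count of day 14 was 5 without diclofenac replicate 3 and 2 without saline replicate 1. That of day 1 was 2 without saline replicate 3. The count of all genes also varied with the setting, as given below, and is not set beside these counts. They therefore do not show whether the 5 genes differed in this from genes at large.

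Taken as the mean of the differences of days 1 and 3, Orm2 (3.25, adjusted p = 0.00436), Lrg1 (1.06, adjusted p = 0.00436), Prg4 (1.72, adjusted p = 0.0113) and Orm1 (0.62, adjusted p = 0.0159) rose in limma, beside 0.505% of genes. Orm3 did not pass, with 2.40 and an adjusted p of 0.0529. With all 22 arrays in one model, the mean of the differences of the 3 days passed for all 5 genes, beside 1.24% of 13340 genes that were higher and passed. This mean was 3.60 for Orm2 (95% CI 2.56 to 4.63, adjusted p = 0.000742), 2.67 for Orm3 (95% CI 1.83 to 3.52, adjusted p = 0.00166) and 1.82 for Prg4 (95% CI 1.29 to 2.36, adjusted p = 0.000836). It was 1.11 for Lrg1 (95% CI 0.82 to 1.40, adjusted p = 0.000326) and 0.83 for Orm1 (95% CI 0.52 to 1.15, adjusted p = 0.00640). The median over all genes was -0.0050. The means of the 3 days were also taken without the 2 livers of high neutrophil signal. They were 3.36 for Orm2, 2.27 for Orm3, 1.57 for Prg4, 0.98 for Lrg1 and 0.72 for Orm1. All 5 passed, with adjusted p of 0.00156 or less. At day 1 the differences without diclofenac replicate 2 were 2.84 for Orm2, 1.97 for Orm3, 1.51 for Prg4, 0.79 for Lrg1 and 0.50 for Orm1. None passed, with adjusted p of 0.394 to 0.422 in limma.

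**Figure D2:**
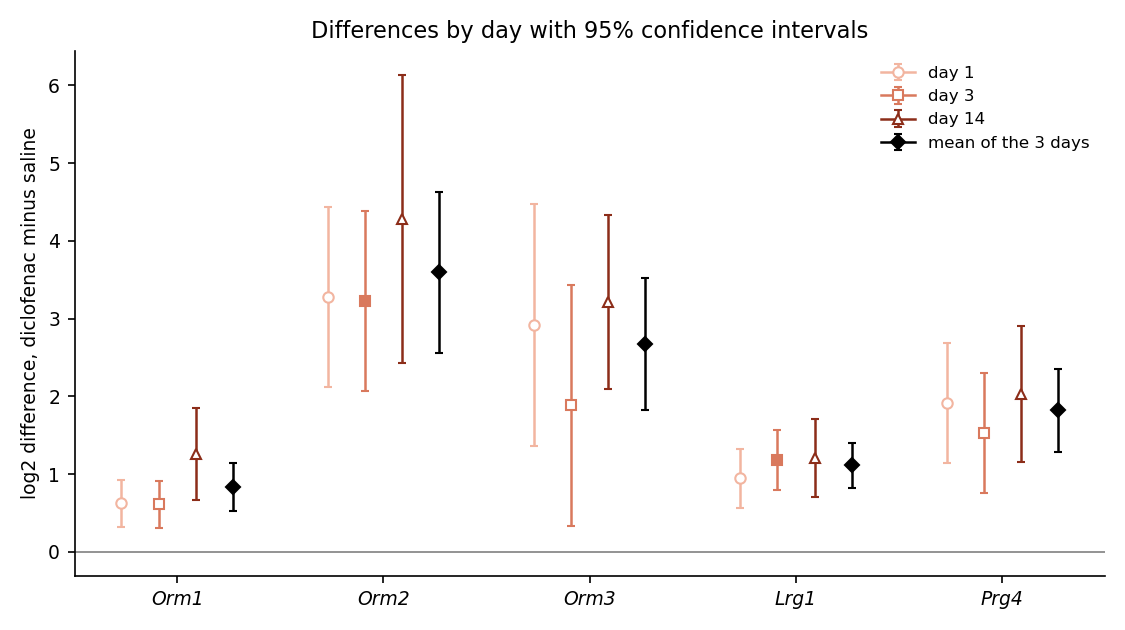
Log2 difference of diclofenac minus saline for each gene at each day and for the mean of the 3 days, with 95% confidence intervals from limma, where filled symbols have an adjusted p under 0.05. Orm2 and Lrg1 are filled at day 3, with 3.22 and 1.18, and all 5 genes are filled for the mean of the 3 days.

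The size of the difference was not shown to depend on the time of treatment. For the difference of day 3 minus that of day 1, the log2 values were -0.01 for Orm1, -0.06 for Orm2, -1.04 for Orm3, 0.24 for Lrg1 and -0.38 for Prg4, with adjusted p of 0.892 or more, and 0% of genes passed. The interval of this value for Orm3, -3.23 to 1.16, leaves a wide range. For the difference of day 14 minus the mean of days 1 and 3, Orm1 had 0.64 (95% CI 0.03 to 1.25, unadjusted p = 0.0407, adjusted p = 0.770 in limma) and Orm2 had 1.03 (95% CI -0.99 to 3.05, adjusted p = 0.914). None of the 5 genes passed, beside 0.0225% of all genes. Lrg1 had 0.14 (95% CI -0.42 to 0.71) and Prg4 0.30 (95% CI -0.74 to 1.35), and Orm3 had 0.81 (95% CI -0.84 to 2.46). At an unadjusted p under 0.05 the count was 0 of the 5 for day 3 minus day 1, beside 5.39% of all genes, and 1 of the 5, Orm1, for day 14 minus early, beside 6.45%.

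Ordered by mean signal, the 3 diclofenac groups stood above the 3 saline groups for each gene. For Orm1 the mean signals were 53530 ± 8418, 48403 ± 5634 and 74630 ± 30929 in diclofenac livers of days 1, 3 and 14, against 34833 ± 6542, 31541 ± 1494 and 30397 ± 9893 in saline livers (SD, n = 3, 3 and 5). For Orm2 they were 37070 ± 21155, 19614 ± 9807 and 44218 ± 25345 in diclofenac livers, against 4379 ± 3645, 1966 ± 485 and 5019 ± 7460 in saline livers. Orm2, like Orm1 and Lrg1, had its highest group mean at day 14, whereas Orm3 and Prg4 had theirs at day 1. For Orm3 the means were 3056 ± 3391, 1026 ± 643 and 1807 ± 977 in diclofenac livers, against 258 ± 92.2, 258 ± 89.9 and 226 ± 189 in saline livers. For Lrg1 they were 36822 ± 7328, 32912 ± 5565 and 39987 ± 17568 in diclofenac livers, against 19319 ± 5024, 14386 ± 590 and 16460 ± 2812 in saline livers. For Prg4 they were 8030 ± 4265, 6112 ± 2273 and 6588 ± 4662 in diclofenac livers, against 2068 ± 877, 2026 ± 181 and 1437 ± 575 in saline livers. Within a treatment, neighbouring times in these orders had means closer than the SD of one of the groups, except for Prg4 in saline livers of days 3 and 14. In the saline livers none of the 5 genes passed between days 3 and 1 (beside 0.217% of genes) or between day 14 and the earlier days (beside 28.4%). By adjusted p Prg4 in saline came nearest, at -0.55 for day 14 minus the earlier days (unadjusted p = 0.138, adjusted p = 0.270 in limma). Lrg1 had the smallest unadjusted p, 0.0450 in limma, at -0.39 for day 3 minus day 1, with an adjusted p of 0.466. In that comparison 10.4% of genes had an unadjusted p under 0.05.

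Across all times, the count of diclofenac livers that lay above each of the 11 saline livers was 11 of 11 for Lrg1, 10 for Orm3, 10 for Prg4, 9 for Orm1 and 9 for Orm2. The controls were not uniform. Saline replicate 3 of day 1 was the highest saline liver of its day for all 5 genes, and so was saline replicate 1 of day 14. The same held for other acute phase genes. Saa2, a serum amyloid A, was at 19235 in saline replicate 3 of day 1, against 6405 and 1847 in the other 2 saline livers, and at 49011 in saline replicate 1 of day 14, against 694 to 3170.2 in the other 4. Lcn2, an iron-sequestering lipocalin, was at 16436 in saline replicate 1 of day 14 and at 1465 to 5222 in the other 4. Neutrophil markers summed to 964 and 765 in these 2 controls, within the range of the other saline livers.

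The order of the treated livers was also largely shared by the 5 genes. One liver was the highest for all 5 genes in each diclofenac group, replicate 2 at day 1, replicate 1 at day 3 and replicate 3 at day 14. These 3 livers also had the highest summed neutrophil signal of their groups, 26675.5, 4022 and 25149, and the part of this in the order was not tested. Replicate 4 of day 14 was the lowest for 4 of the 5. Over the 22 livers, after each liver had been set against the saline mean of its day, the 10 pairs of these genes had Pearson correlations of 0.863 to 0.959. The treatment itself adds to these values. After each liver was set against the mean of its own group, the correlations were 0.599 to 0.911, which were 0.645 to 0.943 among the diclofenac livers and 0.371 to 0.934 among the saline livers. These are descriptions over 22 arrays that share their normalization, and no p is given.

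**Figure D3:**
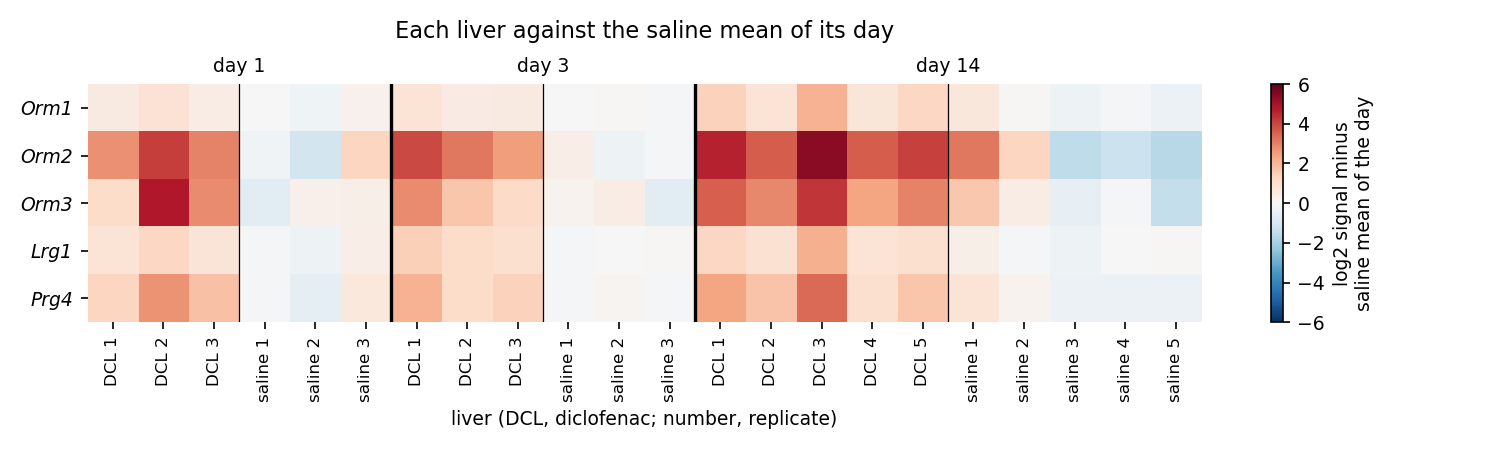
Log2 signal of each gene (rows) in each liver (columns) minus the saline mean of its day, with diclofenac (DCL) left of saline at each day and the replicate number below. Diclofenac replicate 2 of day 1 and replicate 3 of day 14 are the highest of their groups in all 5 rows, and saline replicate 1 of day 14 is the highest control of its day in all 5.

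The genes whose pattern over the 22 livers was most like each of the 5 included several of the listed acute phase genes. Nearest to Orm1 was Itih4, a heavy chain of the inter-alpha-trypsin inhibitor family (Pearson r = 0.969), followed by Wfdc21 (0.956) and Tlr13, a Toll-like receptor of bacterial RNA (0.953). Nearest to Orm2 were the serum amyloids Saa1 (0.961) and Saa2 (0.956), and then Lcn2 (0.953). Orm3 was most like Serpina3n, a serine protease inhibitor (0.954), Prg4 (0.938) and Orm2 (0.917). The pattern of Lrg1 was most like Itih3, another inter-alpha-trypsin inhibitor chain (0.966), Apcs, serum amyloid P component (0.962), and Prg4 (0.959). For Prg4 the most alike were Serpina3n (0.978), Itih3 (0.971) and Lrg1 (0.959). Where each liver was set against its own group mean, Saa1 (0.929), Lcn2 (0.924) and Saa2 (0.908) again stood nearest to Orm2. On that measure Orm3 was nearest to Serpina3n (0.878), Apmap (0.825) and Tapt1 (0.818), and Prg4 to Serpina3n (0.921), Itih3 (0.915) and Itih4 (0.912). Orm1 was nearest to Prg4 (0.911), Itih4 (0.909) and Lrg1 (0.882). Lrg1 was nearest to Prg4 (0.909), Slfn2 (0.908) and Itih3 (0.905). For Lrg1, Orm2 (0.642) and Orm3 (0.599) stood at ranks 882 and 1151. Wfdc21, Tlr13, Apmap, Tapt1 and Slfn2 are not among the listed acute phase genes.

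Of 28 other acute phase proteins of the liver, 24 were tested, and averaged over the 3 days 14 rose and none fell in limma, beside 1.68% of all genes in either direction. Their median log2 difference was 1.01, against 1.82 for the 5 genes and -0.0050 over all genes. Lcn2 (4.19), Serpina3n (1.86), Saa2 (4.19) and Apcs (2.05) rose with the smallest adjusted p, 5.81e-05 to 0.000490. At day 3 Saa1, Saa2, Saa4 and Lcn2 passed, 4 of 24, beside 0.202% of all genes. At days 1 and 14 none passed in limma. An unadjusted p under 0.05 was found for 19 of the 24 at day 1, beside 13% of all genes, and for 21 at day 14, beside 10.8%, and those genes were higher with diclofenac except Hamp, the iron hormone hepcidin, at day 14 (log2 difference -2.95, unadjusted p = 0.0348, adjusted p = 0.430), which is named after its values were seen. Of 8 other lipocalins tested, the family of the orosomucoids, Lcn2 rose over the mean of the 3 days and none fell. Thus 7 did not pass, beside 1.68% of all genes that did in either direction.

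Of the cytokine pathway to acute phase genes, 21 of 25 genes were tested over the 3 days. Beside 1.68% of all genes in either direction, 4 of them rose and none fell. These were Il1r1, the receptor of interleukin 1 (1.42), Nfkbiz, an inducible partner of NF-kB (1.17), Stat3, which carries the interleukin 6 signal to the nucleus (0.91, adjusted p = 0.0106), and Tnfrsf1a, a receptor of tumour necrosis factor (0.63). Bcl3, of the same list, had the smallest adjusted p of all genes at day 3 (0.00735 in limma). Its mean difference of days 1 and 3 was 0.98 (adjusted p = 0.00900), and it did not pass over the 3 days. Stat3 signals were 2924, 5137 and 2955 in diclofenac livers of day 1, against 1877, 1839 and 2193 in saline livers. At day 3 they were 5365, 4508 and 3807 in diclofenac livers, against 2156, 2636 and 1924 in saline livers, so that the groups of days 1 and 3 did not overlap. At day 14 they were 4627, 3261, 10311, 2618 and 4118 in diclofenac livers, against 2039.6, 2592, 2582, 1983 and 3104 in saline livers, where the groups overlapped. Socs3, the feedback inhibitor of this pathway, had 1.84 with an adjusted p of 0.0619, and the interleukin 6 receptor chains Il6ra and Il6st had 0.38 and 0.35 with adjusted p of 0.149 and 0.121. The cytokine Il6, named here after its values were seen, did not pass the filter. Its signal was 720.0 in diclofenac replicate 3 of day 14, the highest liver of its group in all 5 genes. In every other liver it was 55.3 or less. At day 1 it was 2.66, 55.3 and 30.0 in diclofenac livers, against 37.6, 42.9 and 32.4 in saline livers.

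Of 9 C/EBP and liver transcription factors tested none passed, and 4 had an unadjusted p under 0.05 for the mean of the 3 days, beside 18.5% of all genes. Cebpb and Cebpd, the C/EBP factors of the acute phase, had mean log2 differences of 0.28 (adjusted p = 0.232) and 0.40 (adjusted p = 0.448) in limma. None of 11 genes of the glucocorticoid receptor and its targets passed over the 3 days, and 3 had an unadjusted p under 0.05, beside the same 18.5%. Nr3c1, the receptor, had -0.11 (adjusted p = 0.535), and Tsc22d3, a target of the receptor, had -0.54 (adjusted p = 0.237). None passed among 10 tested genes of signalling by transforming growth factor beta, listed for Lrg1, nor among 9 tested genes listed for Prg4. The Prg4 list includes its receptors Cd44 and Tlr2, genes of hyaluronan, and Hpx, which is also among the listed acute phase proteins. An unadjusted p under 0.05 was found for 4 and 5 genes of these lists, beside the same 18.5% of all genes. Cd44 had 0.65 (adjusted p = 0.174) and Tlr2 0.77 (adjusted p = 0.223).

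**Figure D4:**
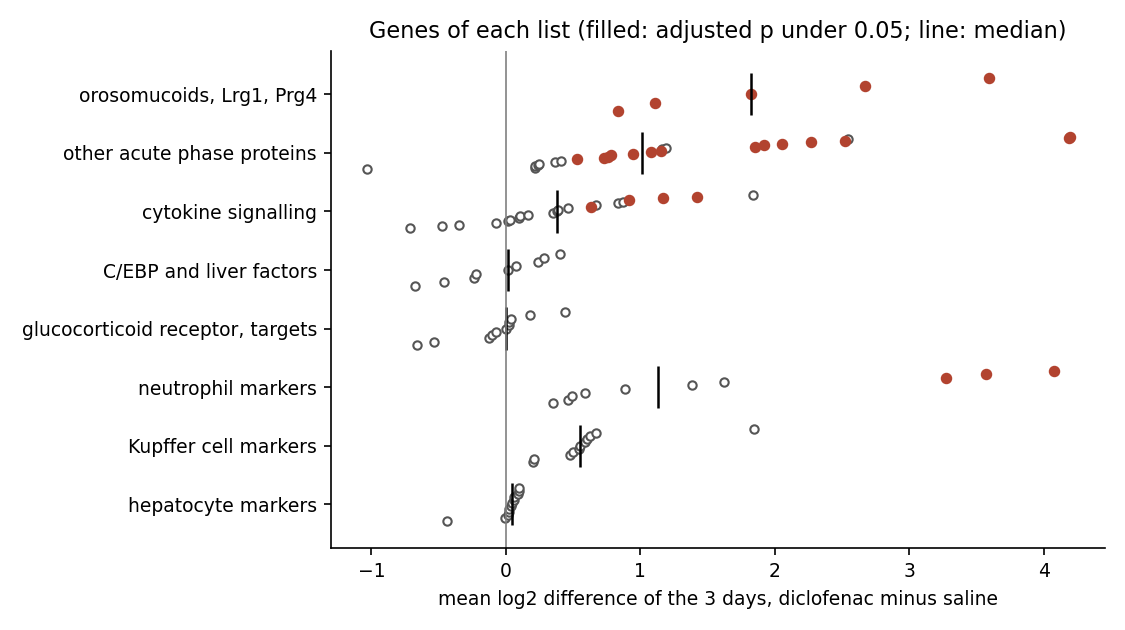
Mean log2 difference of the 3 days, diclofenac minus saline, for each tested gene of 8 lists (points, filled where the adjusted p was under 0.05), with the median of each list as a line. The orosomucoids, Lrg1 and Prg4 have a median of 1.82 and other acute phase proteins one of 1.01, whereas hepatocyte markers have one of 0.04.

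Markers of other cells moved in part with these genes. Of 10 neutrophil markers tested, Prtn3 (4.08), S100a8 (3.57) and S100a9 (3.27) rose over the 3 days, beside 1.24% of genes higher and passing. All 10 were above 0, where the median over all genes was -0.0050. The summed signal of the neutrophil list was 2088 to 26675.5 in diclofenac livers of day 1, against 913 to 1514 in saline livers. At day 3 it was 2371 to 4022 in diclofenac livers, against 623 to 805 in saline livers, and at day 14 it was 933 to 25149 in diclofenac livers, against 438 to 827 in saline livers. Of the 12 markers on the array, 5 were above the array median in all diclofenac livers of day 1 and 5 in all saline livers of that day. These counts were 7 and 2 at day 3, and 3 and 0 at day 14. Kupffer cell and macrophage markers, 11 of which were tested, were all above 0 with a median of 0.55, and none passed, while 9 had an unadjusted p under 0.05, beside 18.5% of all genes. Their summed signal was 36000 to 51787 in diclofenac livers of day 1, against 21405 to 34445 in saline livers. It was 29949 to 44123 in diclofenac livers of day 3, against 26428 to 28656 in saline livers, and 10128 to 41847 in diclofenac livers of day 14, against 5935 to 15275 in saline livers. Hepatocyte markers, 12 of 12 tested, had a median of 0.04, and none passed, nor did any at an unadjusted p under 0.05. Of 6 mesothelial and joint lining markers tested none passed and 1 had an unadjusted p under 0.05, and of 4 platelet and 6 lymphocyte markers none passed and 2 and 0 did so. The share of all genes with an unadjusted p under 0.05 was the same 18.5%. Among 9 endothelial and 9 stellate cell markers Oit3 and Reln fell and none rose, beside 1.68% of all genes that passed in either direction. The part of neutrophil and macrophage transcripts in the levels of Lrg1 and the other genes was not tested.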

How the data were processed

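The authors ran MAS5 on the scanned arrays, and the deposited values are signal intensities on a linear scale, 1 value per probe set, in 1 table for the 22 arrays, and no detection calls were used here. Probe sets with several symbols (932) or none (9211) were left out, and each of 18194 genes was represented by its brightest probe set on average. Signals were taken to log2 with nothing added. Genes above the array median in at least 3 arrays were tested with limma 3.58.1 under R 4.3.3 (trend on signal, two-sided, Benjamini-Hochberg adjusted p under 0.05), with days 1 and 3 in one model, day 14 in another, and all 22 arrays together for means over the 3 times. The mean signals beside them were computed with pandas 2.3.3 and numpy 2.4.6 in Python 3.11.15, exact tests with scipy 1.17.1, and promoters were aligned with Biopython 1.88. The number of arrays limits the precision, and the p-values measure the spread between arrays labelled as separate replicates. Genes named are the 5 themselves, the 3 most like each by correlation, up to 4 per list past the test with the smallest adjusted p, and regulators whatever their result. Members and lists were chosen with earlier results of these data known, so that none of them is independent evidence, and the lists were given no test of their own. Alternatives were other filters, normalizations, models, weights, thresholds, the methods' t-test and the omission of each array. The omission of 2 livers together was chosen after seeing the data. The procedure was also run on simulated data with independent normal noise for each gene. These hold no livers or batches that stand apart as a whole, so they do not test that feature of the data.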

Additional observations from a re-analysis of the deposited data

How the results depend on the processing

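No gene of the 5 changed the sign of its difference between diclofenac and saline on any day under any alternative, and for the mean of the 3 days all 5 passed under each (log2 0.71 to 0.89 for Orm1 and 3.30 to 3.86 for Orm2). How many of the 5 passed on single days depended on the setting, and so did the count of all genes, whose range is given below. The counts of the 5 are not matched with those of all genes for each setting. They therefore do not show whether the 5 differed in this from genes at large. At day 1, where none passed, 0 to 2 passed when 1 array was left out, 5 at an unadjusted p under 0.01 with a 1.5-fold change, and 4 by the methods' t-test. At day 3, where 2 passed, 0 to 4 passed when 1 array was left out, 1 with the mean of all probe sets, 4 with each day on its own arrays, 0 with all 22 arrays in one model, 4 with array weights, 4 without the 2 livers of high neutrophil signal, 4 at the unadjusted threshold, 5 by the methods' t-test and 0 by that test after Benjamini-Hochberg. At day 14, where none passed, 0 to 5 passed when 1 array was left out, 1 with centring on the array median, and 5 with all 22 arrays in one model, with array weights, without the 2 livers, at the unadjusted threshold and by the methods' t-test. For the mean of days 1 and 3 the count ran from 3 to 5. Counts of all genes ranged over the alternatives from 0 to 248 at day 1, 0 to 321 at day 3 and 0 to 284 at day 14, and from 16 to 326 and 108 to 536 for the means of 2 and of 3 days, where 0, 26, 0, 87 and 224 had passed. For the saline groups they ran from 0 to 224 between days 3 and 1 (28) and from 3242 to 9086 for day 14 (3787), and for day 14 minus early from 0 to 17 (3). The cause was not tested.

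Equal replicate numbers were taken as no pairing, because a residual correlation over 0.1 was seen in 1 of 11 such pairs. With the replicate block 0 of the 5 passed at day 3 (6 genes in all), 3 for the mean of days 1 and 3 (24 genes), where Orm1 and Prg4 no longer passed and Orm3 did, and 5 for the mean of the 3 days. None passed at day 1 or day 14, as without the block.

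Differences between times, none of which passed, changed sign in places. For day 3 minus day 1, array weights gave 0.12 for Orm1 and 0.51 for Orm2, the omission of the 2 livers gave 0.11, 0.38 and 0.026 for Orm1, Orm2 and Prg4, and leaving out 1 array gave -0.15 to 0.12, -0.71 to 0.50 and -0.70 to 0.026. For saline day 3 minus day 1, Orm3 had -0.018 with the array median added and -0.12 with array weights, which gave -0.067 for Prg4, and leaving out 1 array gave -0.26 to 0.011 for Orm1, -0.34 to 0.32 for Orm3 and -0.22 to 0.37 for Prg4. For day 14 minus early, Lrg1 had -0.016 with quantile normalization and -0.0039 without the 2 livers, and leaving out 1 array gave -0.083 to 0.25 for Lrg1 and -0.041 to 0.57 for Prg4. For saline day 14 minus early, leaving out 1 array gave -0.11 to 0.081 for Lrg1 and -1.14 to 0.064 for Orm2. The cause was not tested.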
